A study of Mus musculus with 8 samples.

Results

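Genes that the gut epithelium switches on in contact with bacteria were followed through 8 mouse intestine libraries. They are Reg3b, Reg3g, Retnlb, Lcn2, Nos2, Duox2, Duoxa2, Nox1, Saa1 and Saa3. They were taken as a fixed list of gene symbols, and all 10 were found among the 49585 gene identifiers of the deposited table. All 10 also passed the filter of a mean of at least 0.5 FPKM (reads scaled to gene length and library size) that left 16865 genes for testing. RNA came from the intestines of 8 C57BL/6 mice, 1 library per mouse, with 4 labelled Klebsiella recipients and 4 labelled Lactobacillus recipients. Klebsiella are Gram-negative gut bacteria of the Enterobacteriaceae and Lactobacillus are Gram-positive lactic acid bacteria. The sources used here do not give what was transferred, its dose or time, the age of the mice or the part of the intestine sampled, and no untreated group is among the libraries analysed here. Libraries are named by group and mouse number, and values run from mouse 1 to mouse 4 of a group. P-values measure the spread between these mice, for which housing is not stated.

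The products of these genes act at or near the mucosal surface. REG3 proteins are secreted C-type lectins that bind bacterial cell walls, RELMb (Retnlb) is a goblet cell protein that acts on bacteria, and lipocalin 2 (Lcn2) binds siderophores and so withholds iron from bacteria. NOS2 makes nitric oxide, and the NADPH oxidases DUOX2 and NOX1 make hydrogen peroxide and superoxide at the apical side of the epithelium. Serum amyloid A proteins are retinol-binding acute phase proteins that the gut epithelium also makes. Interleukin 22 acting through STAT3, and Toll-like receptor signals acting through MyD88 and NF-kB, are the textbook inducers of many of these genes.

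The libraries held between 15777503 and 21579822 reads in genes, as recovered from the FPKM values, and between 40455910 and 55447220 sequenced reads after the authors' filter. The share of bases at or above quality 30 was 90.65% in Klebsiella mouse 4 and 94.03% to 94.57% in the other libraries. Epithelial transcripts were abundant in all of them: Epcam, an epithelial adhesion protein, was at 611 to 689 FPKM. Of 10 small-intestinal markers 3 passed the filter on level. Fabp6, the ileal bile acid binding protein, was at 3.04 to 11.98 FPKM, while Alpi, an intestinal alkaline phosphatase, and Slc10a2, the ileal bile acid importer, were highest in Klebsiella mouse 3 and Lactobacillus mouse 2. Of the others, Fabp1 reached at most 0.444 FPKM and Apoa4 at most 0.0349 FPKM, and the Paneth cell defensin gene Defa17 was listed at 0 in all 8. Hoxb13, a posterior homeobox gene, was at 81 to 237 FPKM. Klebsiella mouse 3 and Lactobacillus mouse 2 stood apart in the homeobox gene Hoxb6, at 40.2 and 45.2 FPKM against 1.16 to 3.87 in the others. Klebsiella mouse 2 and Lactobacillus mouse 3 stood apart in pancreatic enzymes, with the trypsin gene Prss2 at 124 and 42.4 FPKM against at most 0.919 in the others. In bulk tissue, fewer cells of a type and less RNA per cell cannot be told apart.

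Reg3b and Reg3g are paralogs in the same gene cluster, with Reg3d, Reg3a, Reg2 and Reg1 between them. The stretches of DNA just upstream of their RefSeq start sites are shown because these 2 genes had the widest and the third widest spread of all genes tested. The sequences are RefSeq's, on build GRCm38.p6, and run through the 250 bases before the start site, 5′ to 3′ on the gene's strand. The Reg3b window is chr6:78370635-78370884 on the plus strand and the Reg3g window chr6:78468875-78469124 on the minus strand. Capitals mark a STAT motif (TTCNNNGAA, both strands), the NF-kB motif (searched by its usual degenerate form, both strands) or a TATAAA box (gene's strand).
Reg3b: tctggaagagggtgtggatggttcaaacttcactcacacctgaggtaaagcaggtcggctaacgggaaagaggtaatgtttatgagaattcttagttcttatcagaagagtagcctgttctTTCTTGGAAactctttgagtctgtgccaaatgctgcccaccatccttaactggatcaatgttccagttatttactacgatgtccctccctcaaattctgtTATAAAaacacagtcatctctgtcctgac
Reg3g: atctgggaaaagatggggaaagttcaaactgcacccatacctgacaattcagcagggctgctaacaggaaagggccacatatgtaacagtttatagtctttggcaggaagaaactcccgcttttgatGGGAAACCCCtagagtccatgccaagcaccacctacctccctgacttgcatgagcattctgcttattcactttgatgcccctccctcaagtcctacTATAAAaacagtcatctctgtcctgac
In a global alignment 177 of 243 aligned bases were identical (72.8%). Reg3b carried TATAAA from position -29 to -24 and a STAT match from -129 to -121, counted back from the start site. Reg3g carried TATAAA from -27 to -22 and an NF-kB match from -123 to -114, with no STAT match. Of 32851 RefSeq windows of this length, 7.02% held a STAT match, 3.9% an NF-kB match and 7.59% a TATAAA box. Windows were found for 8 of the 10 members. Among these 8, the STAT motif was in 1, the NF-kB motif in 2 (Reg3g and Nox1) and TATAAA in 3 (Reg3b, Reg3g and Duoxa2). No motif overlapped another in the windows shown. These are matches of letters, not measured binding sites.

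The mice differed far more from each other in REG3 lectin transcripts than the recipient groups did. Reg3b (chromosome 6, 78370657 to 78373466 in GENCODE M21 on GRCm38) was at 0.214, 0.176, 591 and 13.7 FPKM in the Klebsiella mice. It was at 0.211, 1469, 12.8 and 0.386 FPKM in the Lactobacillus mice. One mouse of each group was thus very high, another of each group was at an intermediate level, and the remaining 4 libraries, again from both groups, held between 2 and 4 reads each against 17182 in the highest. The SD of log2(FPKM + 0.5) over the 8 libraries was 4.52 for Reg3b, rank 1 of 16865 genes, where the median gene had 0.244. It also ranked 1 with a pseudocount of 0.1 or 1. Without Klebsiella mouse 3 and Lactobacillus mouse 2, the SD was 2.18 and the rank 46, while Reg3g went from rank 3 to rank 703. With a pseudocount of 0.1, Reg3g ranked 10 over all 8 libraries.

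Reg3g, the lectin that kills Gram-positive bacteria, was at 0.133, 0.546, 65.2 and 2.82 FPKM in the Klebsiella mice and at 0.568, 152, 0.291 and 0.319 FPKM in the Lactobacillus mice. The same mouse of each group was highest as for Reg3b. Reg3b exceeded Reg3g 9.06-fold in Klebsiella mouse 3, 9.65-fold in Lactobacillus mouse 2 and 4.87-fold in Klebsiella mouse 4. In Lactobacillus mouse 3 the ratio was 44.1, with 164 reads of Reg3b and 9 of Reg3g. In Klebsiella mice 1 and 2 it was 1.61 and 0.323, and in Lactobacillus mice 1 and 4 it was 0.372 and 1.21. These 4 libraries held at most 15 reads of either gene. All are ratios of FPKM, so they differ from ratios of reads by the lengths taken for the 2 genes. Whether reads that fit both genes were counted is not stated by the sources at hand, so the split between these paralogs is uncertain.

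Between the recipient groups neither lectin differed by the test. For Reg3b the log2 difference, Klebsiella minus Lactobacillus, was -0.40 (SE 2.83, 95% interval -6.82 to 6.02, limma adjusted p 0.987), and for Reg3g it was 0.11 (SE 1.97, 95% interval -4.34 to 4.57, limma adjusted p 0.995). These intervals are so wide that a large difference in either direction could not have been seen with 4 mice per group. The sign turned with single libraries: the Reg3b difference was 1.97 without Lactobacillus mouse 2 and -2.47 without Klebsiella mouse 3, and the Reg3g difference was -1.30 without the latter. Without both libraries high in Hoxb6, the differences were -0.10 for Reg3b and 0.56 for Reg3g. Without both libraries high in pancreatic enzymes they were 0.90 and 0.016.

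The genes whose log2 values followed Reg3g most closely over the 8 libraries were Slc51a, a subunit of the basolateral bile acid exporter (Pearson r 0.983), Tmem229b (0.979) and the small-intestinal marker Slc10a2 (0.976). Without Klebsiella mouse 3 and Lactobacillus mouse 2, r over the other 6 libraries was 0.615, 0.709 and 0.804, an alternative chosen after seeing the data. Slc51a reached 8.78 and 12.1 FPKM in Klebsiella mouse 3 and Lactobacillus mouse 2, and at most 0.390 in the others. Slc10a2 was at 6.09 and 6.00 FPKM in that pair and at most 1.15 elsewhere. Those closest to Reg3b were Mthfd2l (0.976), Nr1h4, the bile acid receptor FXR (0.947), and Rnf128 (0.940), with r of 0.900, 0.818 and 0.611 over those 6 libraries. Nr1h4 was at 32.9 and 40.6 FPKM in the same pair and at 16.8 to 28.1 in the others. These likenesses are descriptions over 8 libraries, and the pair high in Hoxb6 held the highest level of Slc51a, Slc10a2 and Nr1h4 as of both lectins. Fabp6 did not follow this pattern, at 3.58 FPKM in Klebsiella mouse 3 and 11.92 in Lactobacillus mouse 2. Nor was the pair high in small-intestinal markers alone. Car1, a large-intestinal marker, was at 2342 FPKM in Klebsiella mouse 3 and 2947 in Lactobacillus mouse 2, and at 195 to 836 in the others. Car4 and Aqp8, of the same marker list, were highest in Lactobacillus mouse 4, at 1517 and 390 FPKM. The part of position along the gut in the REG3 levels was not tested.

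Pancreatic acinar cells can also make REG proteins. The library with the most pancreatic RNA, Klebsiella mouse 2, with the 10 acinar markers summing to 1457 FPKM, held only 2 reads of Reg3b. Lactobacillus mouse 3, with a marker sum of 437 FPKM, held other REG transcripts: Reg2 was at 17.3 FPKM there and at most 0.363 elsewhere. Reg1 was at 10.3 FPKM there and 14.6 in Klebsiella mouse 2, and at most 0.679 elsewhere. Reg3a was at 2.86 FPKM there, at 1.103 in Lactobacillus mouse 2, 0.520 in Klebsiella mouse 3 and 0 in the rest. Reg3d reached 1.83 FPKM, also in Lactobacillus mouse 3. The part of pancreatic RNA in the intermediate Reg3b of this library was not tested. Reg4, which is made by epithelial secretory cells, was at 175 to 1088 FPKM and was high in other mice than Reg3b: 1088 in Klebsiella mouse 1 and 1073 in Lactobacillus mouse 1. Of the 7 tested paralogs of the REG and resistin-like genes, 0 were called by limma. At an unadjusted limma p under 0.05, 3.52% of all genes tested were lower in Klebsiella recipients, and so was 1 of these paralogs. That gene was Retn, the adipocyte hormone resistin (log2 difference -1.60, SE 0.56, limma adjusted p 0.774).

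**Figure D1:**
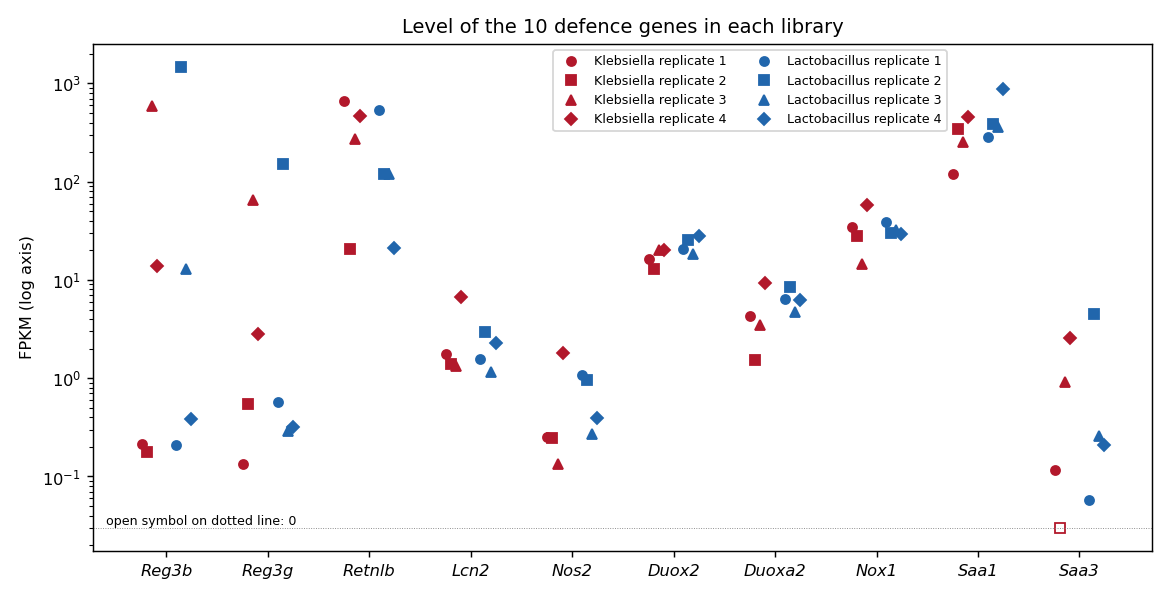
FPKM of the 10 genes (log axis) in each of the 8 libraries, red for Klebsiella and blue for Lactobacillus recipients, with 1 symbol shape per mouse number and an open symbol for a value of 0. For every gene the red and blue symbols overlap, and Reg3b runs from 0.176 to 1469 FPKM.

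**Figure D2:**
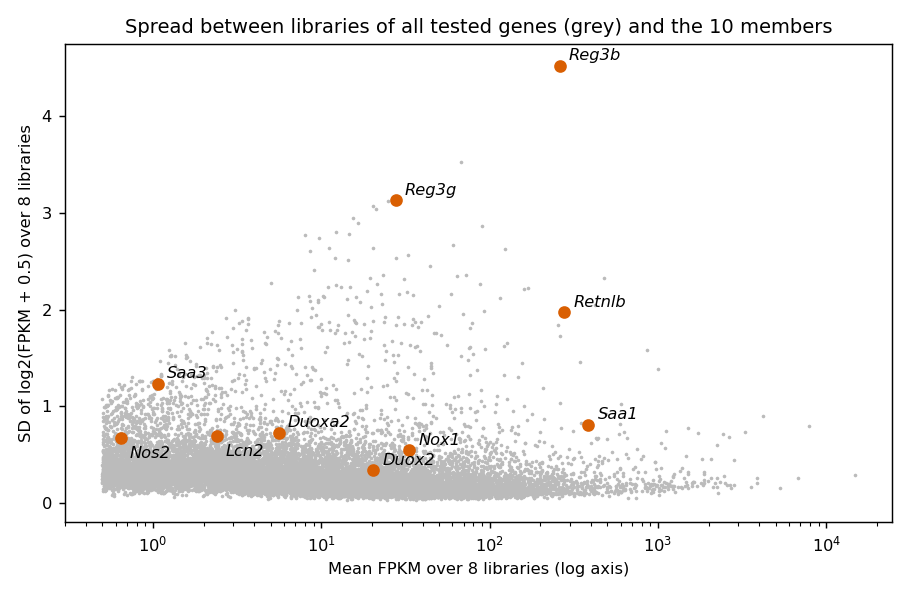
SD of log2(FPKM + 0.5) over the 8 libraries against mean FPKM (log axis) for the 16865 tested genes (grey) with the 10 members in orange. Reg3b lies above all other genes at 4.52, Reg3g at 3.13 and Retnlb at 1.98, while Duox2 lies at 0.34.

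A wide spread between mice was shared by most of the other members. The SD over the 8 libraries was above the gene median of 0.244 for 10 of 10 members and above the 90th percentile of all genes for 8. Duox2 was at percentile 69.2 and Nox1 at percentile 88.8. These percentiles are over tested genes of all levels, and no comparison with genes of like level was made. Counting error adds to the spread of low genes such as Nos2, Lcn2 and Saa3.

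Retnlb (chromosome 16, 48816856 to 48818892), the goblet cell product RELMb, was the second most abundant member by median, at 196.8 FPKM against 351.6 for Saa1. It was at 660, 20.6, 273 and 466 FPKM in the Klebsiella mice and at 541, 120, 121 and 21.3 FPKM in the Lactobacillus mice. A mouse in each group was near 21 FPKM, and the highest values again came from both groups. The means were 355 ± 273 and 201 ± 232 FPKM (SD, n = 4 each). Between groups the log2 difference came to 0.84 (SE 1.21, 95% interval -1.90 to 3.58, limma adjusted p 0.893), and it was 0.042 without Lactobacillus mouse 4, 1.94 without Klebsiella mouse 2 and 1.96 without both libraries high in pancreatic enzymes.

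Summed goblet cell markers ranged less widely than Retnlb. The 7 markers summed to between 12550 and 16150 FPKM in Klebsiella and between 8609 and 14750 FPKM in Lactobacillus libraries. Klebsiella mouse 2, with the lowest Retnlb, had the highest goblet sum. By limma 0 of the 7 were called, with Spdef, a goblet cell transcription factor, at a log2 difference of 0.88 and Muc2, the main secreted mucin, at 0.86 (adjusted p 0.774 for both). Itln1, the secreted lectin intelectin 1, chosen after its values were seen, was at 35.6 to 38.7 FPKM in the 3 libraries with the most Retnlb and at 2.66 to 10.2 in the others. The genes closest to Retnlb by the fixed rule were Srp68, Smarcc1 and Rps6ka4 (Pearson r 0.941, 0.939 and 0.935), of which Srp68 was at 36.2 to 44.9 FPKM.

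Lcn2 (chromosome 2, 32384633 to 32388252) was low in all but 1 mouse. It was at 1.78, 1.40, 1.32 and 6.72 FPKM in the Klebsiella mice and at 1.55, 2.95, 1.15 and 2.28 FPKM in the Lactobacillus mice. Klebsiella mouse 4 stood above the 7 others, while the other Klebsiella libraries lay within the Lactobacillus range. The log2 difference was 0.20 (SE 0.45, 95% interval -0.81 to 1.22, limma adjusted p 0.935) and turned to -0.26 without Klebsiella mouse 4. It was 0.58 without both libraries high in Hoxb6.

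Nos2 (chromosome 11, 78920787 to 78960254) was at 0.253, 0.245, 0.134 and 1.82 FPKM in the Klebsiella mice and at 1.09, 0.954, 0.269 and 0.393 FPKM in the Lactobacillus mice. These levels rest on 6 to 87 reads per library. Klebsiella mouse 4 was again the highest and the 3 other Klebsiella libraries were below all Lactobacillus libraries, though by a narrow gap. Its edges, Klebsiella mouse 1 at 0.253 FPKM and Lactobacillus mouse 3 at 0.269, rest on 11 and 16 reads, too few to set them apart. Between groups the log2 difference came to -0.24 (SE 0.44, 95% interval -1.23 to 0.76, limma adjusted p 0.920). Without Klebsiella mouse 4, Nos2 fell under the filter on mean level and was not tested.

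Il22 and some, but not all, neutrophil markers were highest in the same mouse. Il22 was at 3.32 FPKM (64 reads) in Klebsiella mouse 4 and at 0 to 0.276 FPKM in the others, from at most 5 reads. S100a8 and S100a9, the calprotectin subunits that withhold zinc and manganese, were at 8.31 and 9.16 FPKM there and at most 1.85 and 1.60 elsewhere. Csf3r, the receptor of the neutrophil growth factor G-CSF, was at 2.71 FPKM against 0.381 to 1.22, and was among the 3 genes closest to Lcn2 (Pearson r 0.955), with Mitd1 (0.967) and Rbbp8 (0.947). Of the 10 neutrophil markers, Ngp was at 0 in every library, Elane and Mpo reached at most 0.0689 and 0.146 FPKM, and Ly6g made up most of the sum. That sum was 39.5 to 90.8 FPKM in Klebsiella and 50.3 to 180 FPKM in Lactobacillus libraries, with the highest in Lactobacillus mouse 4. Klebsiella mouse 4 was also the library with the lowest share of bases at quality 30. The part of neutrophils, interleukin 22 or read quality in the Lcn2 and Nos2 levels was not tested.

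The 3 genes closest to Nos2 over the 8 mice were Igha, the constant region of IgA (Pearson r 0.971), Psmb8, an immunoproteasome subunit (0.959), and Derl3, a gene of the secretory pathway of plasma cells (0.959). Igha was at 1013, 1102, 882 and 3932 FPKM in the Klebsiella mice and at 1937, 2329, 1343 and 1263 FPKM in the Lactobacillus mice. The 3 mice with the most Nos2 were also the 3 with the most Igha. Some IgA plasma cells of the gut are known to make NOS2, and the part of plasma cells in the Nos2 level was not tested.

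Of the oxidases that release hydrogen peroxide and superoxide, Duox2 was the steadier, with an SD over the 8 log2 values of 0.34 against 0.55 for Nox1. Duox2 (chromosome 2, 122279247 to 122298449), the peroxide-forming dual oxidase, was at 16.5, 13.0, 19.98 and 20.2 FPKM in the Klebsiella mice and at 20.9, 25.7, 18.3 and 28.1 FPKM in the Lactobacillus mice. Of the 4 Klebsiella libraries 2 lay below the lowest Lactobacillus library and the 2 others lay within the Lactobacillus range. The means were 17.4 ± 3.39 and 23.2 ± 4.44 FPKM (SD, n = 4 each). With a log2 difference of -0.41 (SE 0.18, 95% interval -0.81 to -0.003), Duox2 was the member nearest to a difference, at an unadjusted limma p of 0.0485 and an adjusted p of 0.774. Of all genes tested, 6.07% had an unadjusted p under 0.05 and 3.52% were lower in Klebsiella recipients at that p, so 1 of 10 members is near the background. The difference stayed negative in all 22 alternatives, from -0.52 to -0.28.

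Duoxa2 (chromosome 2, 122298900 to 122302885), the factor that carries DUOX2 out of the endoplasmic reticulum, starts 673 bases from Duox2 in RefSeq and is read in the opposite direction. It was at 4.34, 1.54, 3.47 and 9.30 FPKM in the Klebsiella mice and at 6.43, 8.51, 4.77 and 6.27 FPKM in the Lactobacillus mice. All Klebsiella libraries except that of mouse 4 lay below the Lactobacillus range, and mouse 4 lay above it. The log2 difference was -0.64 (SE 0.42, 95% interval -1.58 to 0.31, limma adjusted p 0.780), and -1.02 without Klebsiella mouse 4. Duox2 exceeded Duoxa2 by 2.17-fold in Klebsiella mouse 4 and by 8.47-fold in Klebsiella mouse 2, so the ratio of the partners also varied between mice. The genes closest to Duoxa2 were C1ra, a complement protease (Pearson r 0.921), the leukocyte kinase gene Lyn (0.897) and Mrpl27 (0.892). Those closest to Duox2 were Igkv5-43, an antibody light chain segment (0.964), Tpgs2 (0.962) and Atp5j2 (0.944). Duoxa2 overlaps Duoxa1 on the other strand, where the Duoxa1 level was at most 0.607 FPKM. The paralog Duox1 was at 0.0433 to 0.267 FPKM.

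Nox1 (chromosome X, 134086421 to 134221956), the colonic superoxide-forming oxidase, was at 34.7, 28.3, 14.5 and 57.7 FPKM in the Klebsiella mice. It was at 39.0, 30.4, 31.9 and 29.1 FPKM in the Lactobacillus mice. The Klebsiella group held both the lowest and the highest value. Between groups the log2 difference came to -0.10 (SE 0.35, 95% interval -0.89 to 0.69, limma adjusted p 0.965). The Nox1 gene model overlaps 3 others, among them Cstf2 on the opposite strand, and the sources at hand do not say how reads of overlapping genes were assigned. Cstf2 itself reached 30.9 FPKM. The genes closest to Nox1 were Wdr20 (Pearson r 0.951), Ttc1 (0.950) and Cep295 (0.949).

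The transcripts of 3 partners of NOX1 varied less than Nox1 itself, with an SD over the 8 log2 values of 0.20 for Noxo1, 0.18 for Noxa1 and 0.24 for Cyba against 0.55 for Nox1. Noxo1, its organiser, was at 4.30 to 5.54 FPKM in Klebsiella and 5.51 to 6.796 FPKM in Lactobacillus libraries, or -0.28 on the log2 scale (SE 0.13, adjusted p 0.774 by limma). Noxa1, its activator, was at 31.2 to 49.2 FPKM and Cyba, the shared p22phox subunit, at 103 to 173 FPKM over all 8 libraries. The ratio of Nox1 to Noxo1 thus ran from 2.61 in Klebsiella mouse 3 to 13.4 in Klebsiella mouse 4. Of the 8 tested partners and paralogs of the oxidases, 0 were called in either direction by limma and 0 had an unadjusted p under 0.05. Their median log2 difference was -0.02, which is also that of all genes (-0.0172).

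Saa1 (chromosome 7, 46740497 to 46742980) was the most abundant member by median. It was at 121, 343, 252 and 458 FPKM in the Klebsiella mice and at 283, 383, 361 and 887 FPKM in the Lactobacillus mice. The groups overlapped except for the lowest 2 libraries, both Klebsiella, and the highest, Lactobacillus mouse 4. The means were 293 ± 143 and 478 ± 276 FPKM (SD, n = 4 each). The log2 difference was -0.71 (SE 0.45, 95% interval -1.74 to 0.31, limma adjusted p 0.774). It was -0.34 without Klebsiella mouse 1 and -0.37 without Lactobacillus mouse 4.

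Summed fat transcripts were lowest and highest in the same mice as Saa1, but single markers differed at the low end. Adipoq, the adipocyte hormone adiponectin, was at 0.138 FPKM in Klebsiella mouse 1 and 21.04 FPKM in Lactobacillus mouse 4. Fabp4 and Plin4 were also highest in Lactobacillus mouse 4, at 35.9 and 3.75 FPKM. They were lowest in Klebsiella mouse 4, at 11.3 and 0.861 FPKM, against 20.0 and 1.66 in Klebsiella mouse 1. The 9 adipocyte markers summed to 24.1 to 37.1 FPKM in Klebsiella and 46.3 to 302 FPKM in Lactobacillus libraries, with Lep at 0 in 3 libraries and Plin1 in 1. The part of fat in the Saa1 level was not tested. Saa2, a close copy of Saa1, was at most 0.379 FPKM and Saa4 at most 0.0272 FPKM. Reads that fit both Saa1 and Saa2 cannot be assigned from these files. The genes closest to Saa1 were Oas1g (Pearson r 0.976), Pot1b (0.969) and Eps15l1 (0.966).

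Saa3 (chromosome 7, 46711998 to 46715700), the serum amyloid of macrophages, fat and epithelium, was at 0.117, 0, 0.906 and 2.55 FPKM in the Klebsiella mice and at 0.0577, 4.48, 0.256 and 0.211 FPKM in the Lactobacillus mice. The 0 in Klebsiella mouse 2 allows a level of up to 0.144 FPKM, the worth of 3 reads, for counting error only. In Saa3 as in Reg3b, Lactobacillus mouse 2 was highest and Klebsiella mice 3 and 4 came next in one or the other order. Lactobacillus mouse 3 followed, but for Saa3 with only 6 reads against 4 in Lactobacillus mouse 4, too close to order these 2. The other 4 libraries held at most 4 reads of either gene, too few to order them. Between groups the log2 difference came to -0.04 (SE 0.79, 95% interval -1.83 to 1.74, limma adjusted p 0.995). Its closest genes were Fcgr3, a Fc receptor of myeloid cells (Pearson r 0.971), Emb (0.963) and the leukocyte surface gene Cd48 (0.943). The 9 macrophage markers summed to 530 FPKM in Lactobacillus mouse 2 and to 304 to 399 FPKM in the others, and their part in the Saa3 level was not tested.

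**Figure D3:**
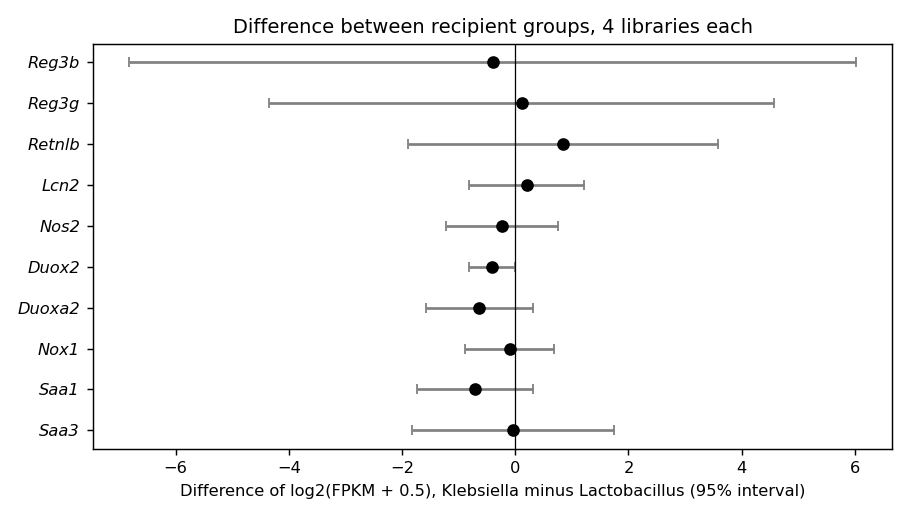
Difference of log2(FPKM + 0.5), Klebsiella minus Lactobacillus, for the 10 members, with the 95% interval from limma (4 libraries per group). All 10 estimates lie between -0.71 and 0.84, and only the Duox2 interval stops short of 0, at -0.003.

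Over the 10 members as a list, 0 were called in either direction at a limma adjusted p under 0.05, against 0 of all 16865 genes (0% called). At an unadjusted p under 0.05, 1 member (Duox2) and 1024 genes passed by limma, and with voom on recovered reads 0 members were called. The difference was positive for 3 members and negative for 7, with a median of -0.17 beside -0.0172 for all genes. The groups overlapped for 10 of 10 members, where 2.99% of all genes had groups that did not overlap. The plot of differences shows the intervals of Reg3b and Reg3g as by far the widest of the list.

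The highest levels of the members came from mice of both groups. Klebsiella mouse 4 was highest for 4 members (Lcn2, Nos2, Duoxa2 and Nox1) and among the top 2 for 6. Lactobacillus mouse 2 was highest for 3 (Reg3b, Reg3g and Saa3) and among the top 2 for 6. Klebsiella mouse 2 was lowest for 5 (Reg3b, Retnlb, Duox2, Duoxa2 and Saa3), although for Reg3b it held 2 reads, as did Klebsiella mouse 1 and Lactobacillus mouse 1. Klebsiella mice 1 and 3 were each lowest for 2, and Lactobacillus mouse 3 for 1 (Lcn2). The lowest levels thus came mostly from Klebsiella libraries. With 4 mice per group, the lack of a call does not show that the groups are alike. The levels of Reg3b and Reg3g fell into separate clusters of libraries, so their 17 pairs with members are not ranked with the rest. Of these 17, Reg3b and Saa3 passed by Spearman's rho (0.976, exact permutation adjusted p 0.0179 over 45 pairs, n = 8). The lower ranks of both genes rest on libraries with at most 4 reads, too few to order them. Without Lactobacillus mouse 2 and Klebsiella mouse 3, the Pearson r of Reg3b and Saa3 was 0.747. Of the remaining 28 pairs, 26 had a positive Pearson r.

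Among these 28, Nos2 and Duoxa2 were the pair whose order was most alike, with a Spearman rho of 0.952 (exact permutation p 0.00114, adjusted p 0.0257 over 45 pairs, two-sided, n = 8). Their Pearson r was 0.757 (exact permutation p 0.0241, adjusted p 0.1905, n = 8), and 0.698 without Klebsiella mouse 4 and Lactobacillus mouse 1, the 2 libraries farthest from the Nos2 median. With both genes centred within their group, r was 0.770. The lower Nos2 ranks rest on few reads: 11, 13 and 6 in Klebsiella mice 1 to 3, and 16 and 19 in Lactobacillus mice 3 and 4. These are too few to order all of those libraries, so the rho is uncertain. Duox2 and Duoxa2 had r 0.777 and rho 0.714 (exact permutation adjusted p 0.1905 and 0.446, n = 8), and r was 0.620 without Klebsiella mouse 2 and Lactobacillus mouse 4. Over the 28 pairs 1 passed by Spearman's rho and 0 by Pearson's r after adjustment.

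**Figure D4:**
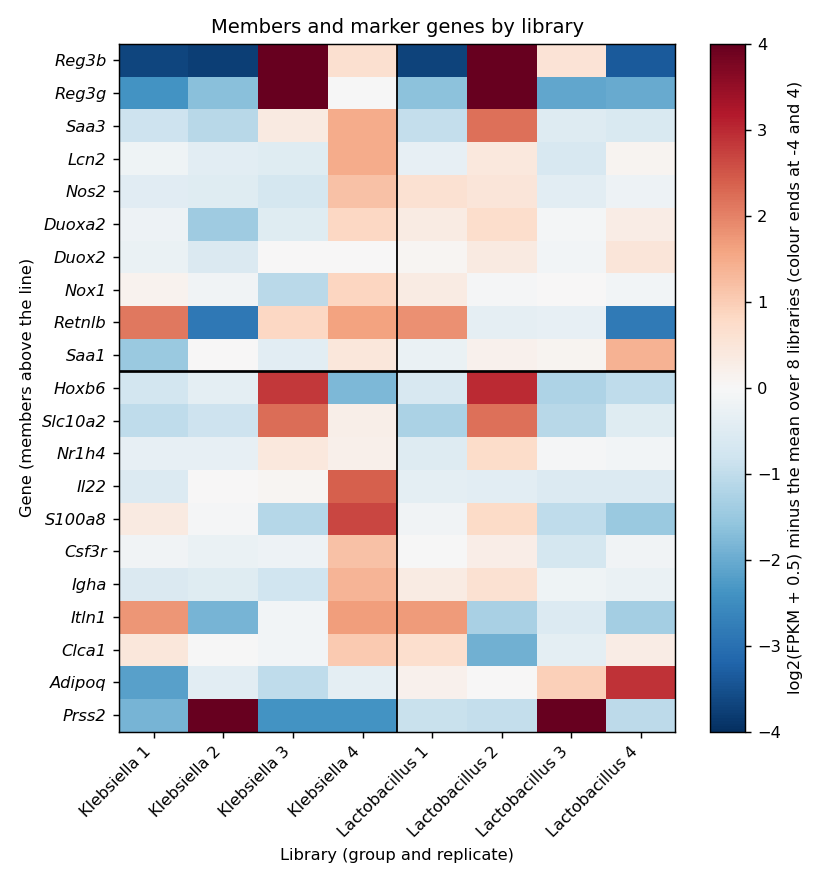
log2(FPKM + 0.5) minus its mean over the 8 libraries (colour, with the scale ending at -4 and 4) for the 10 members above the line and marker genes below it, in the 4 Klebsiella (left) and 4 Lactobacillus libraries (right). Reg3b, Reg3g, Hoxb6 and Slc10a2 are high in Klebsiella 3 and Lactobacillus 2, and Lcn2, Nos2, Il22 and S100a8 in Klebsiella 4.

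Genes upstream of the members showed no difference between groups past the threshold. Of 15 cytokines only 5 passed the filter on level, and 0 were called by limma. Il17a had at most 3 reads and Ifng at most 3 in any library, and Il13 had 12 reads in Lactobacillus mouse 1 and at most 2 elsewhere. Il1b, the inflammasome cytokine, was at 5.88, 14.1, 1.97 and 13.6 FPKM in the Klebsiella mice and at 5.41, 3.63, 0.917 and 3.18 FPKM in the Lactobacillus mice, which is 1.17 on the log2 scale (SE 0.62, adjusted p 0.774 by limma). Il18, made by the epithelium, differed by -0.53 on the log2 scale (SE 0.27, adjusted p 0.774 by limma).

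Of 18 receptors and adaptors, all above the filter, 0 were called, 4 had an unadjusted p under 0.05 with higher and 1 with lower values in Klebsiella recipients, against 2.55% and 3.52% of all genes. Il4ra, the receptor chain of interleukins 4 and 13, had a log2 difference of 0.37 and Il6st, the signalling chain gp130, of 0.23 (limma adjusted p 0.774 for both). Il22ra1, the epithelial chain of the interleukin 22 receptor, was at 5.33 to 10.6 FPKM in Klebsiella and 7.87 to 17.2 FPKM in Lactobacillus libraries. Among 14 transcription factors and their regulators 0 were called and 2 had an unadjusted p under 0.05, both lower. Nfkbiz, an inducible NF-kB cofactor, was at 9.34 to 13.3 FPKM in Klebsiella and 15.5 to 19.6 FPKM in Lactobacillus libraries, which do not overlap (log2 difference -0.49, SE 0.13, limma adjusted p 0.774). Stat3 was at 86.0 to 149.7 FPKM and its feedback inhibitor Socs3 at 13.2 to 45.3 FPKM, both highest in Klebsiella mouse 4. Il22ra1, Stat3 and Socs3 were chosen after their values were seen.

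Other bacteria-responsive epithelial genes were likewise uncalled: 0 of 14 tested passed. At an unadjusted limma p under 0.05, 6.07% of all genes tested passed, and so did 1 of these 14. That gene was Ccl28, the chemokine that draws IgA plasma cells, at 27.6 to 41.9 FPKM in Klebsiella and 43.7 to 60.2 FPKM in Lactobacillus libraries (log2 difference -0.43, SE 0.16, limma adjusted p 0.774). Pigr, which carries IgA across the epithelium, was at 2333 to 2591 FPKM in Klebsiella and 2744 to 3084 FPKM in Lactobacillus libraries (log2 difference -0.26, SE 0.12, limma adjusted p 0.774). Of the 5 tested genes of metal withholding 0 were called. Slc40a1, the iron exporter ferroportin, was at 61.4 to 95.5 FPKM in Klebsiella and 90.2 to 189 FPKM in Lactobacillus libraries (log2 difference -0.73, SE 0.23, limma adjusted p 0.774). Of 8 genes of nitric oxide and arginine metabolism 0 were called. Odc1, the rate-limiting enzyme of polyamine synthesis, was at 66.4 to 78.3 FPKM in Klebsiella and 37.8 to 67.4 FPKM in Lactobacillus libraries (log2 difference 0.51, SE 0.18, limma adjusted p 0.774). Arg2, the mitochondrial arginase, chosen after its values were seen, was at 3.52 FPKM in Klebsiella mouse 3 and 4.03 FPKM in Lactobacillus mouse 2, and at 0.488 to 1.31 FPKM elsewhere. Retnla, a paralog of Retnlb, was at 4.80 to 18.5 FPKM, with its lowest and highest level both in Lactobacillus libraries.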

How the data were processed

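RNA of 8 mouse intestines was sequenced, 4 per recipient group, from total RNA taken with Trizol, per the labels' protocols. Per the submitters' processing notes, tools named without a role were STAR 2.5.1b, HTSeq 0.6.0, DESeq2 1.10.1 and CASAVA. The sources used here give neither the build nor the gene models. Deposited by the authors were FPKM values for 49585 identifiers, and read counts and the percent of bases at quality 30 per library, per the file headers. Their own subset of 15 genes holds 0 of the members. Symbols and positions came from GENCODE M21 (GRCm38), which matched 49326 identifiers, and upstream sequences from RefSeq (GRCm38.p6).

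Since FPKM are normalized, the test was made on a log scale. Within a library, values are whole multiples of what 1 read is worth. With the GENCODE length, 11964 of 29869 expressed genes gave whole reads in all libraries within 1e-06, and 17246 more did so by a common step, where true reads may be a multiple of those given. Reads carry counting error only. Values were analysed as log2(FPKM + 0.5), which understates the change of low genes, with limma 3.58.1 in R 4.3.3 (variance trend, two-sided, Benjamini-Hochberg over 16865 genes, adjusted p under 0.05). Correlations over libraries had exact permutation tests in scipy 1.17.1. The test was tried on simulated data.

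Members, lists and alternatives were chosen with earlier results of these data known. The genes named were the members, their paralogs and partners, the 3 of each other list with the smallest p where the text needed them, and the 3 genes of at least 1 mean FPKM closest to each member by Pearson r, without numbered models and pseudogenes. As the best of many genes over 8 libraries, the closest genes have a high r by selection alone. For Lcn2, Nos2 and Saa3, r with their closest genes was not computed without the library highest in them. Itln1, Arg2, Il22ra1, Stat3, Socs3, Adipoq, Fabp4, Plin4 and the genes that describe libraries were added after their values were seen. Alternatives were other pseudocounts, filters and scalings, weights, the mouse number as a block, Hoxd13 as a covariate, voom on recovered reads and libraries left out.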

Additional observations from a re-analysis of the deposited data

Results flagged for a closer look

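In 4 of the 20 gene and group combinations tested (10 members in 2 groups of 4), 1 library stood apart from the 3 others of its group on the log2 scale, by the gap to the nearest library over the whole range against its 95% critical value. Chance gives about 1 in 20 such combinations, and the members share libraries. Reg3g in Lactobacillus mouse 2 had a share of 0.943 and Saa3 in the same library 0.861. Nos2 in Klebsiella mouse 4 had 0.867 and Lcn2 in the same library 0.838.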

How the results depend on the processing

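Over 22 alternatives, 0 members and 0 genes were called in each, with a smallest adjusted p of 0.429 for a member and 0.25 for any gene; between 0 and 2 members and between 431 (without the pair high in the pancreatic gene Ctrb1) and 2009 genes (without Lactobacillus mouse 1) had an unadjusted p under 0.05. Duox2, Duoxa2 and Saa1 stayed negative in all 22. Of 218 member values 22 changed sign, none of them called. With array weights the log2 differences were -3.42 for Reg3b, -1.67 for Reg3g, -0.17 for Retnlb and -0.023 for Lcn2. With Hoxd13 as a covariate, a posterior homeobox gene at 2.20 to 8.03 FPKM in Klebsiella mice 2 to 4 and 19.1 to 46.3 in the others, they were -4.46 for Reg3b, -2.74 for Reg3g, 2.20 for Retnlb and 0.34 for Nox1. Without the pair high in Hoxb6 they were 0.085 for Nos2, 0.21 for Nox1 and 0.55 for Saa3, and without the pair high in Ctrb1 0.90 for Reg3b and 0.14 for Saa3. With 1 library left out in turn, ranges were -2.47 to 1.97 for Reg3b, -1.30 to 1.97 for Reg3g, -0.55 to 0.68 for Saa3, -0.41 to 0.24 for Nox1 and -0.26 to 0.40 for Lcn2. The causes were not tested. The mouse numbers share nothing by the labels, and deviations of same-numbered mice correlated at 0.189, -0.10, -0.059 and -0.159 over genes. With them as a replicate block, 0 members were called and 1 member and 1027 genes had an unadjusted p under 0.05. At 4 mice per group, intervals of Reg3b and Reg3g span many doublings, and Nos2, Lcn2 and Saa3 rest on at most 108 reads.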
